A study of Mus musculus and Rattus norvegicus with 11 samples.

Results

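Icam2 and Vcam1 encode immunoglobulin-type adhesion proteins that endothelium shows to passing leukocytes, and Itgal, Itgam, Itgb2, Itga4, Itgb1 and Itgb7 encode integrin chains through which leukocytes bind such ligands. These 8 genes were taken by symbol from the 31053 genes of the mouse matrix, and 7 of them from the 32883 genes of the rat matrix, where the symbol Itgam was not present. Their transcripts were followed across the cell types that the submitters had named in mouse and rat peripheral nerve, and across the mouse library groups.

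Leukocytes leave the blood by rolling along the vessel wall, arresting on it and crossing it. Arrest is carried by integrins, heterodimers of an alpha and a beta chain that are held inactive until chemokine or antigen receptor signals switch them on. The αLβ2 integrin LFA-1 (Itgal with Itgb2) binds ICAM-1 and ICAM-2, the αMβ2 integrin Mac-1 (Itgam with Itgb2) is the integrin of myeloid cells, and the α4 chain (Itga4) forms VLA-4 with Itgb1, which binds VCAM-1, or α4β7 with Itgb7, which binds MAdCAM-1 and, less strongly, VCAM-1. Itgb1 also pairs with many other alpha chains that bind the extracellular matrix, and is therefore made well beyond leukocytes.

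The data are droplet-based single-cell 3′ RNA counts from 9 mouse and 2 rat libraries. For mouse the sciatic nerve and the brachial plexus were digested, myelin was removed and live cells were sorted, whereas rat sciatic nerve was digested and run on a density gradient with no sort. The C57BL/6 group (3 libraries, numbered 1, 3 and 4) was undiseased, and the rats were naive Lewis animals. NOD is a mouse strain prone to autoimmunity. The NOD control group and the group labelled ICAM-1-1/-NOD, which the design text writes ICAM-1-/-NOD, were sequenced for the study of chronic autoimmune neuritis. NOD controls were libraries 1, 2-1 and 2-2. The last 2 share a sample number and were summed, which left 2 NOD control samples against 3 samples labelled Icam1 knockout, and 8 mouse samples in all. The labels name no agent for any group. No label gives age, sex, the deleted part of Icam1 or whether a library was 1 animal or a pool, so p-values measure the spread between these samples. A cell type name was available for 15672 of 16050 mouse barcodes and 12360 of 12500 rat barcodes. Levels are unique molecular identifiers (UMIs) of a gene per 1000000 UMIs of the same cell type and sample (CPM), and types with fewer than 20 cells in a sample were left out.

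Total UMIs ranged from 571042 to 6631004 per mouse sample and were 19074026 and 17958844 in rat. Icam1, the gene named in the label, stood at 248, 262 and 255 CPM in the 3 libraries labelled Icam1 knockout, at 94.5 and 51.1 CPM in NOD control and at 81.8, 88.1 and 48.1 CPM in C57BL/6. Its transcript was therefore higher in the libraries labelled knockout, and because the deleted part is not stated, a 3′ tag does not check the label. Leukocytes made up 91.5 to 91.8% of named cells in those libraries, against 8.86 and 33.9% in NOD control and 25.3, 7.50 and 49.6% in C57BL/6, after a sort and with cell loss that are not known to be equal. Barcodes shared between libraries numbered at most 15 for any mouse pair and 59 for the rat pair. Most names held against their marker genes. In mouse, 4 mural markers summed to 5592 to 8004 CPM in PC and 14060 to 14770 CPM in vSMC, 5 myeloid markers to 13410 to 26150 CPM in MP and 14580 to 42960 CPM in MC, 4 B cell markers to 3367 to 6105 CPM in BC and 3 epineurial markers to 6111 to 9449 CPM in fibro. Other names did not hold. Cells named nmSC carried 5 fibroblast markers at 42030 to 89680 CPM and 4 Schwann markers at 108 to 325 CPM, so they are called "cells named nmSC" here. In NOD control 1 only 6 of 42 cells named CD4 or CD8 had a UMI of Cd3d, Cd3e or Cd3g, against 331 of 468 in NOD control 2 and 909 of 987, 1064 of 1161 and 1071 of 1187 in the libraries labelled Icam1 knockout.

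In the mouse genome (GRCm38, GENCODE vM21) the genes lie apart from each other on 7 chromosomes, and only Itgal and Itgam share one. Icam2 is at chr11:106377656-106388075 (minus strand), Vcam1 at chr3:116109949-116129688 (minus), Itgal at chr7:127296260-127335138 (plus) and Itgam at chr7:128062640-128118491 (plus). Itgb2 is at chr10:77530252-77565708 (plus), Itga4 at chr2:79255426-79333123 (plus), Itgb1 at chr8:128685654-128733200 (plus) and Itgb7 at chr15:102215995-102231944 (minus). Exon sequence of Itgam lies within the span of Gm49368 on the same strand, which carried 83 UMIs against 137 for Itgam. Reads of the pair could have been split where their exons coincide, which was not examined. Overlaps of Itga4 with Cerkl (17 UMIs against 853) and of Vcam1 with Gm43109 (3 against 614) are on the opposite strand.

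RefSeq promoter windows (GRCm38.p6, 250 bases before to 50 bases after the start) were held for 4 of the 8 genes, all integrin chains, and are printed because they include the most widespread of the chains in nerve (Itgb1) and the myeloid one (Itgam). Capitals mark GAGGAA or its reverse complement TTCCTC, a purine-rich core of the kind bound by the myeloid and lymphoid factor PU.1.
Itga4, chr2:79255176-79255475, plus strand: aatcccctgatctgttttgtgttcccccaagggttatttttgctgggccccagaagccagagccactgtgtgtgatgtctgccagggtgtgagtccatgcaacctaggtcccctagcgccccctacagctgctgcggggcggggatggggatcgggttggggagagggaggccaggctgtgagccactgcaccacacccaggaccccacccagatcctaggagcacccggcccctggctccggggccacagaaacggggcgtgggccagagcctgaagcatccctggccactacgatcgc
Itgam, chr7:128062390-128062689, plus strand: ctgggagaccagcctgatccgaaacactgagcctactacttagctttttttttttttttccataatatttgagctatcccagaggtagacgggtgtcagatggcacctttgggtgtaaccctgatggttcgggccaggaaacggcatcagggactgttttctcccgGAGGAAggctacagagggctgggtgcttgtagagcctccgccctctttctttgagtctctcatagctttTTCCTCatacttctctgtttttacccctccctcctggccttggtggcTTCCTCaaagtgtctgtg
Itgb1, chr8:128685404-128685703, plus strand: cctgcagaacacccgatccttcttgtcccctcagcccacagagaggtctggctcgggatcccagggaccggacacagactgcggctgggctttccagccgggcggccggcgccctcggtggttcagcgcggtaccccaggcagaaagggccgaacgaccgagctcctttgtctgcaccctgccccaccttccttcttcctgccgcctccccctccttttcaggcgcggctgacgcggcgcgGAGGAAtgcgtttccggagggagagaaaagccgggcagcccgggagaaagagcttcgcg
Itgb7, chr15:102231886-102232185, minus strand: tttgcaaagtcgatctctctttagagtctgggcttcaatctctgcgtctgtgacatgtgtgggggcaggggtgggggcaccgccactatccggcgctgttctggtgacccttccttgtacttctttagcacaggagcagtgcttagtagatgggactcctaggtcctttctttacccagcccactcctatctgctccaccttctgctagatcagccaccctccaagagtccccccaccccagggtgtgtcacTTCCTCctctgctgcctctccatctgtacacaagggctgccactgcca
The Itgb1 window held 27 CG dinucleotides and 67.3% G and C. The Itga4 window held 10 and 64.3%, that of Itgam 6 and 50.3%, and that of Itgb7 5 and 56.3%, where the medians over 32851 windows were 7 and 52.7%. GAGGAA occurred 3 times in the Itgam window, once each in the Itgb1 and Itgb7 windows and not in that of Itga4. On both strands together 28.3% of all windows held it. GGGCGG, an Sp1-type motif held by 35.7% of windows, occurred once each in the Itga4, Itgam and Itgb1 windows, and TGTGGT, a Runx-type motif held by 16.8%, occurred once in the Itga4 window alone. A match of letters describes the window and does not show a bound site.

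Of the vascular ligands, Icam2 was an endothelial transcript in every mouse group. In C57BL/6 endothelial cells (EC1) it stood at 272, 406 and 181 CPM in libraries 1, 3 and 4, in NOD control endothelial cells (EC) at 392 and 380 CPM, and in the libraries labelled Icam1 knockout at 401, 434 and 234 CPM. The spread within C57BL/6 and within the knockout-labelled group was wider than the distance between groups, and the 3 groups overlapped. These cells held their 6 endothelial markers at 8603 to 10300 CPM in all groups. Lymphatic endothelium, scored only in C57BL/6 library 3, had Icam2 at 193 CPM from 6 UMIs. The next levels were in lymphocytes, at 57.5 ± 21.9 CPM in B cells and 50.7 ± 6.11 CPM in CD4 cells (SD, n = 3 each) of the libraries labelled Icam1 knockout, where CD8 cells had 24.1 ± 13.1 CPM. B cells and CD4 cells overlapped in that order, whereas endothelial cells and CD4 cells each stood clear of the next type. No Icam2 UMI was found among 2000881 UMIs of C57BL/6 cells named nmSC, and a count of 0 there allows up to 1.5 CPM.

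Vcam1, which is induced on activated endothelium and is also made by stromal cells, was highest in C57BL/6 EC1, at 103, 228 and 108 CPM in libraries 1, 3 and 4. Fibroblasts (fibro) of C57BL/6 followed with 44.4 ± 21.8 CPM (SD, n = 3) and cells named mySC with 40.3 and 25.9 CPM in the 2 libraries with enough cells, and these 2 types overlapped. In NOD control the order was EC with 49.0 and 99.3 CPM, fibro with 49.3 and 32.8 CPM and cells named nmSC with 20.1 and 24.9 CPM. In the libraries labelled Icam1 knockout mySC led with 170 ± 55.5 CPM, followed by EC with 118 ± 77.4 CPM and myeloid cells (MC) with 90.9 ± 21.2 CPM (SD, n = 3 each), and these 3 ranges overlapped in turn. EC there rest on 10 Vcam1 UMIs in all, 1, 4 and 5 per library. Lymphocytes carried little of it, with 0 UMIs in 333 C57BL/6 T cells (TC), which allows up to 8.79 CPM, and 11.3 ± 7.03 CPM in CD4 cells labelled Icam1 knockout.

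**Figure D1:**
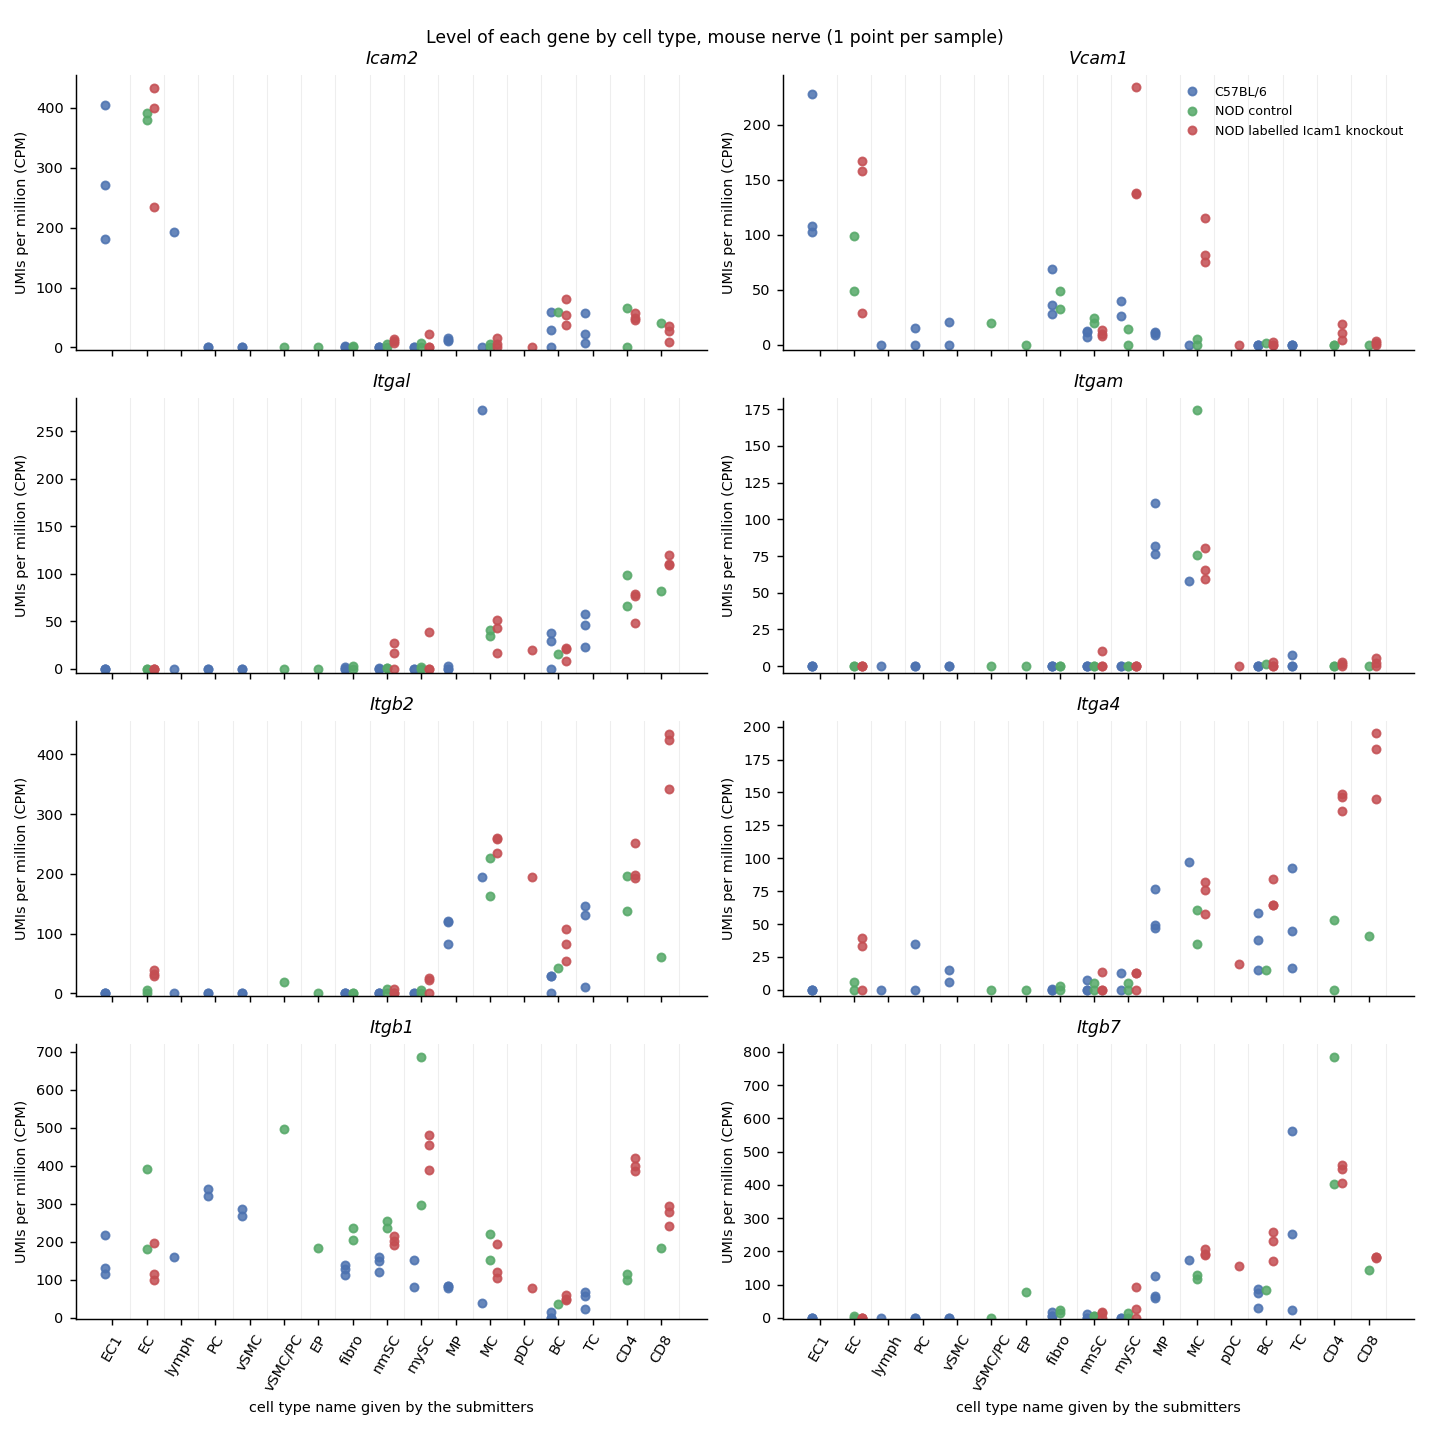
Level of each of the 8 genes (vertical axis, CPM, linear scale) in each named cell type (horizontal axis), with 1 point per sample in C57BL/6 (blue), NOD control (green) and NOD labelled Icam1 knockout (red). Icam2 points above 100 CPM are all endothelial or lymphatic, Itgam points above 50 CPM are all in MP or MC, and Itgb1 is present in nearly every type.

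The β2 partners followed the leukocytes. Itgb2, the shared beta chain of LFA-1 and Mac-1, gave 0 UMIs in EC1, fibro, nmSC, mySC, PC, vSMC and lymphatic cells of C57BL/6. Of these, nmSC held 2000881 UMIs and fibro 3246168 UMIs, which allow up to 1.5 and 0.924 CPM. In C57BL/6 leukocytes it was highest, at 194 CPM from 10 UMIs, in the 24 cells named MC of library 3, the only C57BL/6 library with enough of them. It stood at 108 ± 22.1 CPM in macrophages (MP) and at 11.2, 131 and 147 CPM in TC of libraries 1, 3 and 4, so TC of library 1 were low and TC and MP overlapped. In the libraries labelled Icam1 knockout, CD8 cells had 423, 342 and 435 CPM, MC 260, 259 and 235 CPM, and CD4 cells 198, 193 and 252 CPM. CD8 cells stood above the other types in all 3 libraries, while MC and CD4 cells overlapped. B cells of those libraries had 107, 54.5 and 83.4 CPM, below every CD4 value. EC, mySC and nmSC of the knockout-labelled libraries had 7 Itgb2 UMIs between them.

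Itgal, the alpha chain of LFA-1, was highest in T cells, with 1 exception. In the libraries labelled Icam1 knockout CD8 cells had 120, 110 and 109 CPM and CD4 cells 79.1, 48.5 and 76.5 CPM. The CD8 values were higher in 3 of 3 libraries without overlap, as for Itgb2, and the cells named CD8 also carried 4 natural killer cell markers at 1026 to 1269 CPM. MC had 37.2 ± 18.5 CPM and B cells 17.1 ± 7.86 CPM (SD, n = 3 each), and these overlapped. C57BL/6 TC had 41.9 ± 17.8 CPM, and macrophages 1.03 ± 1.79 CPM from a single UMI. The exception was the 24 cells named MC in C57BL/6 library 3, with 272 CPM from 14 UMIs, and these cells held 4 neutrophil markers at 25990 CPM beside the macrophage markers at 42960 CPM. No sample of EC or EC1 held an Itgal UMI.

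Itgam, the alpha chain of Mac-1, was found in C57BL/6 and NOD control types of at least 20 cells only under myeloid names, apart from 3 UMIs, 1 each in TC, fibro and B cells. C57BL/6 macrophages had 90.04 ± 18.7 CPM (SD, n = 3), NOD control MC 174 and 75.6 CPM, and MC labelled Icam1 knockout 59.5, 80.6 and 65.5 CPM. NOD control 1 was the highest of these samples and the other control lay within the knockout-labelled range. Every other type had a mean of at most 3.38 CPM. Its level is a lower limit in so far as reads were assigned to the overlapping Gm49368.

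Itga4, the α4 chain shared by VLA-4 and α4β7, was highest in T cells of the libraries labelled Icam1 knockout. CD8 cells had 145, 195 and 183 CPM and CD4 cells 147, 149 and 136 CPM, and the types overlapped. MC had 71.7 ± 12.7 CPM and B cells 71.0 ± 11.3 CPM (SD, n = 3 each), which also overlapped and lay below every T cell value. In C57BL/6 the highest value was 97.2 CPM, from 5 UMIs in the 24 cells named MC of library 3. Below it, macrophages had 57.7 ± 16.4 CPM, TC 51.2 ± 38.5 CPM and B cells 37.1 ± 21.9 CPM (SD, n = 3 each), and these 3 types overlapped in turn. In NOD control MC had 34.85 and 60.5 CPM and CD4 cells 0 and 52.8 CPM, which overlapped. Beyond leukocytes, pericytes (PC) of C57BL/6 held 7 UMIs, giving 0 and 35.1 CPM in 2 libraries.

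Itgb1, the common β1 chain, was the broadest. In C57BL/6 it was highest in pericytes at 321 and 338 CPM and in vascular smooth muscle (vSMC) at 269 and 285 CPM, and each of these stood clear of the type below. Lymphatic endothelium (161 CPM from 5 UMIs in library 3), endothelium (154 ± 55.03 CPM), cells named nmSC (143 ± 19.5), fibro (126 ± 13.9, n = 3 each) and mySC (116 ± 50.5, n = 2) overlapped in that order. Leukocytes were lower, with 80.8 ± 3.72 CPM in macrophages, 49.2 ± 23.1 CPM in TC and 4.92 ± 8.53 CPM in B cells. The libraries labelled Icam1 knockout had a different order, with CD4 cells at 387, 420 and 400 CPM overlapping mySC at 390, 480 and 455 CPM, and CD8 cells at 295, 278 and 242 CPM. CD4 cells were above CD8 cells in 3 of 3 libraries without overlap. B cells remained the lowest type in both groups, at 51.4 ± 7.14 CPM in the libraries labelled Icam1 knockout.

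Itgb7, the beta chain of α4β7 and αEβ7, ran the other way from Itgb2 between the T cell names. In the libraries labelled Icam1 knockout CD4 cells had 407, 447 and 461 CPM and CD8 cells 182, 184 and 181 CPM, with no overlap. MC with 206, 190 and 191 CPM lay between them, and B cells with 231, 258 and 170 CPM lay below the CD4 values and overlapped both MC and CD8 cells. C57BL/6 macrophages had 83.7 ± 37.5 CPM (SD, n = 3). In NOD control CD4 cells had 786 and 403 CPM, the first from 39 cells. C57BL/6 TC had 22.4, 563 and 253 CPM in libraries 1, 3 and 4, so library 1 was far below the other 2. Rare UMIs in stroma gave 9.86 ± 7.17 CPM in C57BL/6 fibro, and EC1, PC, vSMC and mySC had none. Because the cell types were defined from the same transcripts, these differences between types are given without a test.

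How a gene's UMIs were divided among the cells of a sample followed both its level per type and the make-up of the sample. In C57BL/6, endothelial names held 82.9, 91.9 and 35.7% of Icam2 UMIs, the last in library 4, which was 49.6% leukocytes by cells and had only 14 such UMIs. In the libraries labelled Icam1 knockout endothelial names held 17.1, 11.8 and 9.33%, and leukocytes 81.7, 86.0 and 89.3%, although the endothelial levels given above overlapped between the groups. Vcam1 UMIs lay in cells named Schwann or fibroblast for 50, 64.3 and 63.6% in C57BL/6 and for 96.7 and 69.2% in NOD control, and in leukocytes for 65.9, 70.7 and 45.5% in the libraries labelled Icam1 knockout. Leukocytes held 12.7, 3.52 and 23.1% of Itgb1 UMIs in C57BL/6, 7.54 and 14.9% in NOD control and 89.8, 89.4 and 87.6% in the libraries labelled Icam1 knockout. Itgb2 UMIs lay in leukocytes for at least 90.6% in every sample. These shares move with the leukocyte share of each library, so they describe the libraries rather than any type.

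**Figure D2:**
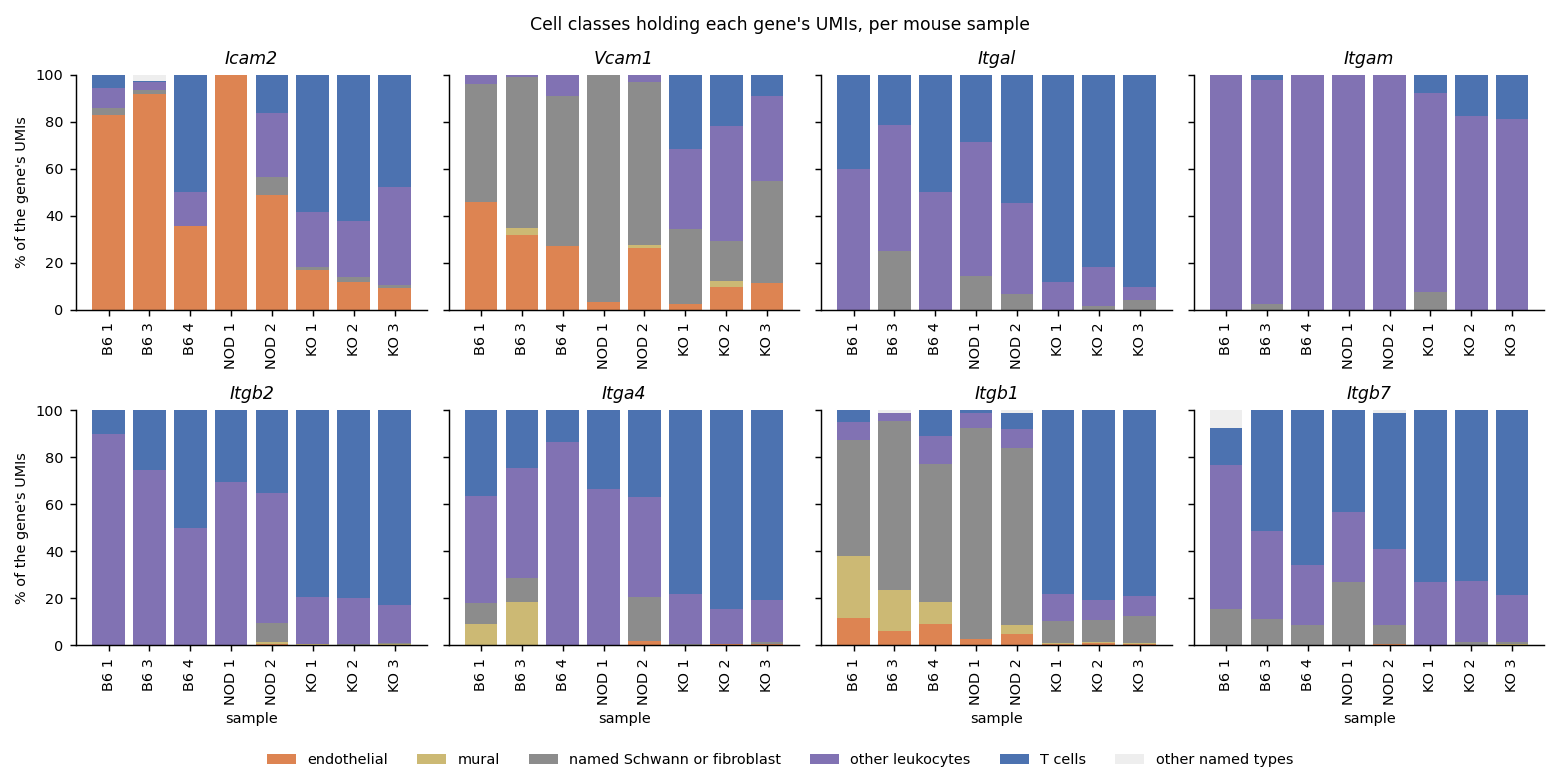
Share of each gene's UMIs (vertical axis, % of the gene's UMIs in named cells) held by endothelial, mural, named Schwann or fibroblast, other leukocyte, T cell and other named types in each of the 8 mouse samples (B6, C57BL/6; NOD, NOD control; KO, NOD labelled Icam1 knockout; the number is the sample's). Named Schwann or fibroblast cells hold 49.15 to 89.84% of Itgb1 UMIs in the B6 and NOD samples. T cells hold most Itgb1 UMIs in the 3 KO samples, while Itgb2 is held by leukocytes throughout.

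The genes with the most similar pattern over 64 sums of cells of one type in one mouse sample, among 6208 genes with a mean of at least 20 CPM, were found by Pearson's r of log2(CPM + 10). The sums share libraries and depth, so r is a description. Icam2 was most like Sigirr (r = 0.88), S1pr1 (0.88) and Pecam1 (0.85), the last an endothelial junction protein. Vcam1 was most like the interferon-induced genes Oasl2 (0.81), Ifit3 (0.74) and Iigp1 (0.73). Itgal was most like Sash3, Bin2 and Fyb (0.82, 0.81 and 0.81), and Itgam was most like the myeloid genes Lrrc25 (0.97), Csf1r (0.97) and C5ar1 (0.96). Itgb2 was most like Glipr1 (0.91), Selplg (0.91) and Fermt3 (0.90), which encodes kindlin-3, the integrin activator of blood cells. Itga4 was most like Bcl2a1b, Ms4a6b and Gpr65 (0.86, 0.86 and 0.85), Itgb7 was most like Bin2, Rassf5 and Cd53 (0.92, 0.90 and 0.90), and Itgb1 had the loosest matches, Ptms, Ap2m1 and Eva1b (0.76, 0.73 and 0.73). Among the genes themselves the closest pairs were Itgb2 with Itgb7 (0.85), Itgb2 with Itga4 (0.81), Itgal with Itgb7 (0.79) and Itgal with its partner Itgb2 (0.77).

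The comparison of the libraries labelled Icam1 knockout with NOD control bears on the chronic autoimmune neuritis that the design names. Counts were summed per sample and set and tested with edgeR's quasi-likelihood test, adjusted over all genes of the set (adjusted p under 0.05 is called), with folds as log2 ± SE. In T cells (CD4 and CD8 names together) Itgb1, Itga4 and Itgb2 were higher in the libraries labelled Icam1 knockout, which makes 3 of the 6 members that passed the filter on low counts. Of all 8285 genes tested in T cells 11.6% were called, and 6.46% were called higher. The members' median log2 fold was 0.59 against 0.09 over all genes, and the other 2, Itgam and Vcam1, had too few counts.

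Itgb1 stood at 345, 355 and 330 CPM in T cells of the libraries labelled Icam1 knockout, at 138 CPM (3 UMIs) and 125 CPM (44 UMIs) in NOD control 1 and 2, and at 67.2, 23.1 and 57.2 CPM in C57BL/6. Every library labelled knockout was above both controls. The log2 fold was 1.33 ± 0.28 (adjusted p = 6.65e-05), and the ratio of pooled CPM was 2.73 with an exact 95% interval of 2.04 to 3.74 for counting error only. Itga4 stood at 146, 170 and 157 CPM against 91.8 CPM (2 UMIs) and 51.1 CPM (18 UMIs), again with no overlap. Its log2 fold was 1.43 ± 0.34 (adjusted p = 0.000818), and the pooled ratio 2.94 (1.89 to 4.86). Itgb2 stood at 302, 261 and 333 CPM against 321 CPM (7 UMIs) and 128 CPM (45 UMIs), so that NOD control 1 lay inside the knockout-labelled range. Its log2 fold was 0.96 ± 0.27 (adjusted p = 0.00555). The T cell sums mix CD4 and CD8 names, and Itgb2 was higher under the CD8 name in the knockout-labelled levels given above. In CD4 cells alone Itgb1 and Itga4 stayed called and Itgb2 did not (log2 fold 0.43).

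The other LFA-1 and α4β7 chains did not pass the test in T cells. Itgal stood at 97.8, 76.8 and 91.1 CPM against 91.8 and 68.2 CPM (log2 fold 0.22 ± 0.34, adjusted p = 0.76), and its groups overlapped. Itgb7 stood at 303, 326 and 337 CPM against 734 CPM (16 UMIs) and 366 CPM (129 UMIs), both controls above the knockout-labelled libraries, with a log2 fold of -0.42 ± 0.23 (adjusted p = 0.27). These sums mix CD4 and CD8 names, between which Itgb7 differed. Within the CD4 name, by the levels given above, the groups overlapped for Itgb7. Icam2 stood at 37.3, 47.4 and 31.2 CPM against 0 and 62.5 CPM (-0.71 ± 0.40, adjusted p = 0.28). Vcam1 had 13, 9 and 4 UMIs in the libraries labelled Icam1 knockout and none in 510 control T cells, too few for a bound on its fold.

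Other values moved with this comparison. The 5 T cell markers summed to 6447 to 6765 CPM in the knockout-labelled libraries and to 826 and 3246 CPM in the controls, none of the 5 at 0 in any sample. The 4 natural killer cell markers summed to 552 to 642 CPM against 73.8 and 91.8 CPM, with 2 of 4 at 0 in NOD control 1, and the 5 fibroblast markers to 257 to 440 CPM against 1469 and 1778 CPM. Their part in the result was not tested. With only the cells that had a Cd3d, Cd3e or Cd3g UMI, an alternative chosen after seeing the data, Itgb1 stayed called (1.09, adjusted p = 0.024), whereas Itga4 (1.12, adjusted p = 0.060) and Itgb2 (0.95, adjusted p = 0.057) did not. Without NOD control 2, which holds 468 of the 510 control cells, none of the 3 was called, and Itgb2 was lost without library 3 labelled Icam1 knockout (adjusted p = 0.061). DESeq2 called only Itgb1 (adjusted p = 0.025), and none of the 3 was called with equal numbers of cells per sample or with the libraries labelled knockout summed as 1 sample.

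**Figure D3:**
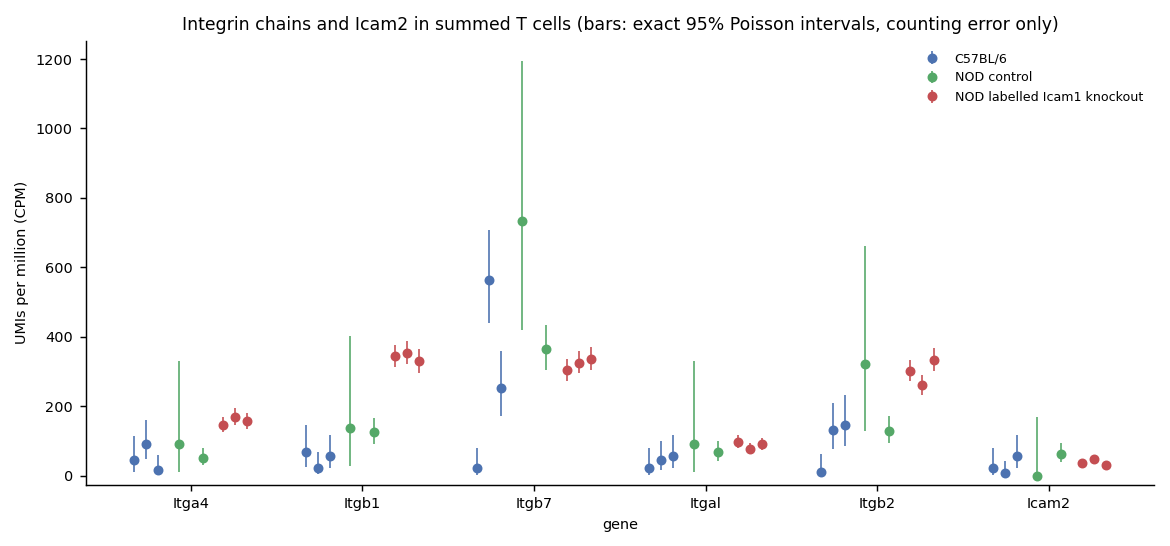
Levels of 5 integrin chains and Icam2 in summed T cells (vertical axis, CPM, from 0), 1 point per sample with its exact 95% Poisson interval for counting error, in C57BL/6 (blue), NOD control (green) and NOD labelled Icam1 knockout (red). The red points of Itgb1 lie at 330 to 355 CPM above both green points, and the wide green bars are NOD control 1 with 42 cells.

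Vcam1 was the member called in myeloid and in mySC-named cells. Among myeloid cells (MC and pDC) 6 members were tested and 1 was called, where 16.4% of all genes were called and 8.11% called higher. Vcam1 stood at 60.7 CPM (14 UMIs), 88.9 CPM (20) and 71.3 CPM (15) in the libraries labelled Icam1 knockout, at 0 and 4.89 CPM (1 UMI) in NOD control, and at 10.1, 8.01 and 8.88 CPM in C57BL/6. All 3 libraries labelled knockout were above all 5 other samples. The log2 fold against NOD control was 4.05 ± 0.82 (adjusted p = 0.00325). The pooled ratio of 21.6 had a counting interval of 3.70 to 871, since the controls hold a single UMI. Cells named MC with a Vcam1 UMI numbered 5 of 63, 8 of 70 and 8 of 78 against 0 of 71 and 1 of 149, at median depths of 2202 to 2870 against 910 and 1139 UMIs per cell. Thinned to 500 UMIs per cell they numbered 5 of 63, 0 of 70 and 1 of 77 against 0 of 65 and 0 of 144. So at equal depth only the first library held more than 1 such cell. B cells of the same libraries had a Vcam1 UMI in 0 of 347, 0 of 381 and 1 of 379 cells, at lower median depths of 912 to 1192 UMIs. T cells of these libraries held 13, 9 and 4 Vcam1 UMIs. The source of the UMIs in any of these types was not tested.

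The macrophage markers of the same myeloid cells summed to 11420 to 15190 CPM against 24600 and 30180 CPM, the plasmacytoid markers to 366 to 786 against 88.0 and 135 CPM, and the T cell markers to 156 to 285 against 33.7 and 63.5 CPM. The 6 endothelial markers summed to 13.3 to 65.1 against 0 and 58.7 CPM, so they overlapped between the groups. The part of these values in the Vcam1 result was not tested. In myeloid cells with no endothelial, T or B cell marker UMI, an alternative chosen after seeing the data, Vcam1 kept 2, 8 and 8 UMIs (21.0, 69.1 and 72.9 CPM) against 0 and 1 (0 and 7.08 CPM) and fell below the filter, so it was not tested. It was also below the filter with NOD controls 2-1 and 2-2 as separate samples, and missed the threshold with the libraries labelled knockout summed as 1 sample (adjusted p = 0.055).

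The other myeloid members were not called. Itgam stood at 47.7, 62.2 and 57.0 CPM against 168 and 73.3 CPM, both controls above the knockout-labelled libraries, with a log2 fold of -1.10 ± 0.42 (adjusted p = 0.087). Without NOD control 2 it was called, at -1.72 (adjusted p = 0.030). Itgb7 stood at 191, 182 and 176 CPM against 123 and 112 CPM, with groups apart in the other direction (0.49 ± 0.28, adjusted p = 0.28). Itgb1 (-0.49 ± 0.33, adjusted p = 0.36), Itga4 (0.19 ± 0.46, adjusted p = 0.83) and Itgb2 (-0.01 ± 0.26, adjusted p = 0.98) did not pass.

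In cells named mySC, which held 4 Schwann markers at 2539 to 3975 CPM, 2 members were tested and 1 was called, where 11.4% of all genes were called and 5.61% called higher. Vcam1 stood at 138 CPM (11 UMIs), 137 CPM (6) and 234 CPM (18) in the libraries labelled Icam1 knockout, at 0 CPM in 20 cells of NOD control 1 and at 14.4 CPM (8 UMIs) in 740 cells of NOD control 2. The 3 libraries were above both controls and above the 2 C57BL/6 values of 40.3 and 25.9 CPM. The log2 fold was 3.28 ± 0.73 (adjusted p = 0.00362), and the pooled ratio 12.4 (5.66 to 31.0). Cells with a Vcam1 UMI numbered 8 of 46, 6 of 28 and 11 of 50, against 8 of 740 in NOD control 2. Thinned to 500 UMIs per cell they numbered 4 of 46, 1 of 27 and 2 of 47 against 4 of 525. Itgb1 stood at 390, 480 and 455 CPM against 687 and 297 CPM, with no difference beyond the spread (0.10 ± 0.33, adjusted p = 0.91).

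The mySC comparison sets 28 to 50 cells per library labelled knockout against 20 and 740. The 4 myelin markers summed to 6221 to 10030 CPM in the former and to 33220 and 49290 CPM in the latter, and the 5 T cell markers to 176 to 325 CPM against 0 and 54.0 CPM. Their part in the result was not tested. In cells without any leukocyte marker UMI, again an alternative chosen after seeing the data, Vcam1 kept 5, 2 and 6 UMIs (113, 111 and 164 CPM) against 0 and 8 UMIs (0 and 17.8 CPM), and fell below the filter. The call was lost with DESeq2 (adjusted p = 0.051), with equal numbers of cells, without NOD control 2 (log2 fold 6.25, adjusted p = 0.28), without library 1 labelled Icam1 knockout and without library 3, where the gene was no longer tested.

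**Figure D4:**
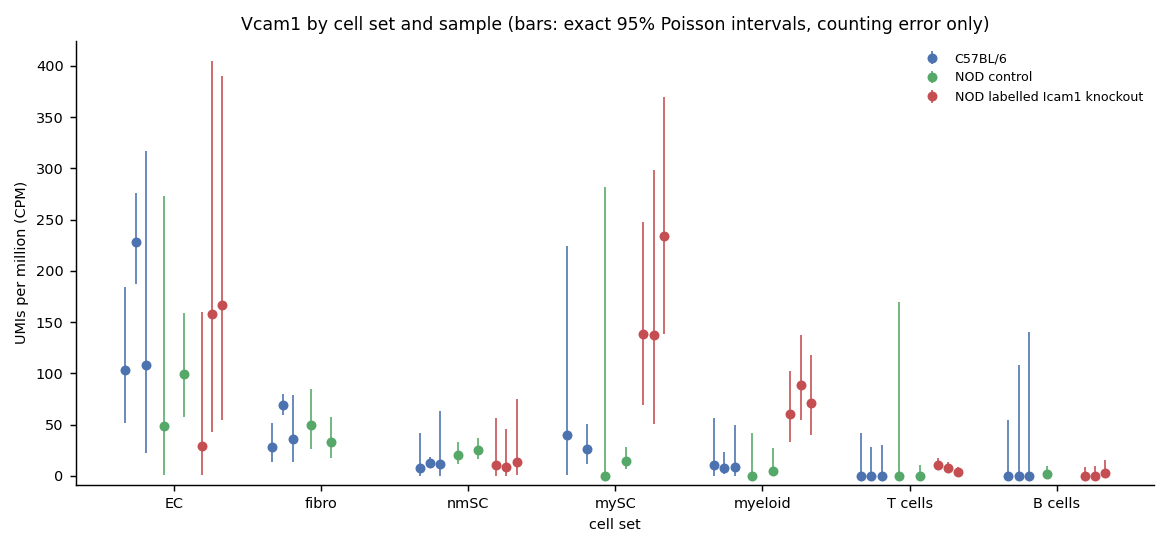
Vcam1 level (vertical axis, CPM, from 0) in 7 sets of cells, 1 point per sample with its exact 95% Poisson interval for counting error, in C57BL/6 (blue), NOD control (green) and NOD labelled Icam1 knockout (red). In mySC and myeloid cells all red points lie above all green and blue points, and in EC the groups overlap.

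In endothelial cells only Icam2 passed the filter against NOD control and it was not called, where 2.6% of 538 genes were. Its values, given above, overlapped, and the log2 fold was -0.14 ± 0.33 (adjusted p = 0.87). Vcam1 stood at 28.6, 158 and 167 CPM against 49.0 and 99.3 CPM in EC and was not tested. EC of NOD control carried 4 lymphatic markers at 859 and 10730 CPM, all 4 of which were at 0 in the libraries labelled knockout. Among cells named nmSC 1 member was tested and none called, where 3.9% of genes were called. Itgb1 stood there at 203, 191 and 216 CPM against 255 and 237 CPM, both controls higher, with a log2 fold of -0.30 ± 0.23 (adjusted p = 0.50). B cells were not tested, since NOD control 1 held 7. Itgb7 in B cells stood at 231, 258 and 170 CPM against 85.0 CPM in NOD control 2, and Itga4 at 84.0, 64.4 and 64.6 CPM against 15.3 CPM. With both controls pooled, the B cell ratios were 4.25 for Itga4, 2.63 for Itgb7 and 1.88 for Itgb2. They were 1.39 for Itgb1, 1.04 for Itgal and 0.96 for Icam2, with counting intervals that included equality. Vcam1 and Itgam had 1 UMI in each group.

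Other genes of the pathway were followed as 3 lists, namely 12 further ligands and junction proteins, 13 further integrin chains and 12 genes of integrin activation. In T cells 5 of 12 ligands were tested, with a median log2 fold of -0.52. Icam1 was called higher (2.36) at 289, 297 and 271 CPM against 91.8 and 48.3 CPM. Fn1, which encodes the VLA-4 ligand fibronectin, was called lower (-3.04) at 8.54, 5.72 and 8.67 CPM against 45.9 and 59.6 CPM, beside the fibroblast markers that were lower in the same sums. None of the 5 further integrin chains tested was called, with a median of 0.83. Of 11 activation genes tested 3 were called higher and 1 lower, and the list's median log2 fold of 0.29 compares with 0.09 over all genes. Rap1a and Rap1b, the small GTPases that switch integrins on, rose by 1.19 and 1.14, and Rassf5, a Rap1 effector bound to LFA-1, rose by 1.12. Rap1a stood at 349, 409 and 365 CPM against 45.9 and 162 CPM. Rasgrp2, the calcium-responsive activator of Rap1, was called lower (-1.42) at 80.7, 97.2 and 84.1 CPM against 45.9 CPM (1 UMI) and 230 CPM, so its groups overlapped.

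In myeloid cells Fn1 was called lower (-2.51) at 65.1, 62.2 and 99.8 CPM against 437 and 352 CPM. Itgb5, the vitronectin receptor chain and the only further chain tested, was called higher (1.70) at 174, 111 and 176 CPM against 67.3 and 29.3 CPM. None of 10 activation genes was called in myeloid cells. In cells named nmSC Icam1 was called higher (1.97) at 111, 149 and 148 CPM against 46.4 and 22.9 CPM, alone among 4 ligands and 4 activation genes tested. No list gene was called in mySC (9 tested over the 3 lists) or in EC (4 ligands tested).

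The comparison of NOD control with C57BL/6 set the nerve cells of the 2 strains side by side, and none of the members was called in any set. Tested members numbered 2 in cells named nmSC, 2 in fibro, 3 in endothelial, 4 in myeloid and 4 in T cells. The share of all genes called in these sets was 2.28%, 1.82%, 1.96%, 1.3% and 1.29%. Before adjustment 2 passed 0.05 by edgeR, Itgb1 in cells named nmSC and in myeloid cells, and DESeq2 called none either. The same unadjusted cutoff was passed by 806 of all 7691 genes in cells named nmSC and by 170 of 1687 in myeloid cells. Itgb1 in cells named nmSC stood at 255 and 237 CPM in NOD control and at 143 ± 19.5 CPM (n = 3) in C57BL/6, without overlap, with a log2 fold of 0.64 ± 0.30 (edgeR adjusted p = 0.46). In myeloid cells its log2 fold was 1.04 ± 0.38 (edgeR adjusted p = 0.34). In the other sets it was 0.63 ± 0.29 in fibro, 0.71 ± 0.46 in endothelial and 1.03 ± 0.67 in T cells, so the 5 estimates were all positive and each failed the adjustment. The 5 sets come from the same samples, so their signs are not independent of each other.

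Vcam1 was 0.77 ± 0.50 in cells named nmSC, -0.50 ± 0.43 in fibro and -0.95 ± 0.51 in endothelial cells between the strains, with adjusted p from 0.68 to 0.78 by edgeR. Icam2 in endothelial cells was 0.18 ± 0.37. Myeloid Itgb2 was 0.57 ± 0.37, Itgam 0.14 ± 0.46 and Itgb7 0.06 ± 0.40. T cell Itgb7 was 0.60 ± 0.77, Itgb2 0.62 ± 0.72 and Itga4 -0.15 ± 0.87. TC of C57BL/6 library 1 were low for Itgb2 and Itgb7. Both comparisons use the same NOD control samples. The sets were not alike between the strains. NOD control EC carried the lymphatic markers given above, whereas lymphatic cells had their own name in C57BL/6 and lay outside EC1. Myeloid cells were MC with pDC in NOD control and MP with MC in C57BL/6. The part of these differences in the folds was not tested. Among the pathway lists Pecam1 was called higher (3.15) in cells named nmSC, at 28.8 and 22.9 CPM against 0, 2.81 and 0 CPM, and F11r, which encodes the junction protein JAM-A, lower (-2.47), at 6.27 and 5.97 CPM against 15.1, 34.3 and 34.0 CPM, and no other list gene was called.

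Rat nerve showed the ligands and chains in 2 deeper libraries, with no comparison of groups. Icam2 stood at 241 and 185 CPM in microvasculatory EC of libraries 1 and 2 and at 212 and 214 CPM in vascular EC, which carried 3 lymphatic markers at 1687 to 1873 CPM beside endothelial ones at 1532 to 1672 CPM. These 2 endothelial names overlapped for Icam2. They did not for Vcam1, at 677 and 500 CPM in microvasculatory EC and at 179 and 151 CPM in vascular EC. Cells with a Vcam1 UMI were 51.3 and 48.1% of microvasculatory EC and 19.3 and 16.9% of vascular EC, against 1.22 and 0.961% of cells named nmSC, at median depths of 3242 and 3331, 2204 and 2334, and 2578 and 2582 UMIs. Thinned to 500 UMIs per cell, 31 of 158 and 17 of 133 microvasculatory EC and 11 of 166 and 7 of 136 vascular EC had one. Rat fibro had 20.2 ± 0.920 CPM of Vcam1. Icam2 reached 85.2 ± 0.222 CPM in PF4 MC, a macrophage name, and 73.9 ± 2.21 CPM in MHC II antigen-presenting cells (SD, n = 2 each).

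Of the integrin chains in rat, Itgb2 stood at 253 and 233 CPM in MHC II antigen-presenting cells and at 111 and 111 CPM in PF4 MC, each type apart from the next, with B cells and T cells near 34.3 CPM. Itgb7 was also led by MHC II antigen-presenting cells at 199 and 185 CPM, ahead of T cells at 31.8 and 35.7 CPM, whereas in the NOD libraries CD4 cells led. Itgb1 was led by cells named nmSC at 248.7 and 233.8 CPM, and T cells were the lowest type at 33.7 and 41.8 CPM. Itgal reached 16.3 ± 0.815 CPM in T cells and 11.7 ± 0.875 CPM in PF4 MC. Itga4 was low everywhere, with 14.0 and 2.61 CPM in T cells. Rat B cells carried 4 fibroblast markers at 1939 to 2632 CPM beside 4 B cell markers at 1478 to 1784 CPM. Rat T cells carried the fibroblast markers at 1674 to 2304 CPM beside 5 T cell markers at 2271 to 2730 CPM. The source of the low member levels in these 2 types was not tested. Rat and mouse matrices were made on different genomes and protocols, so their levels were not compared by a test.

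**Figure D5:**
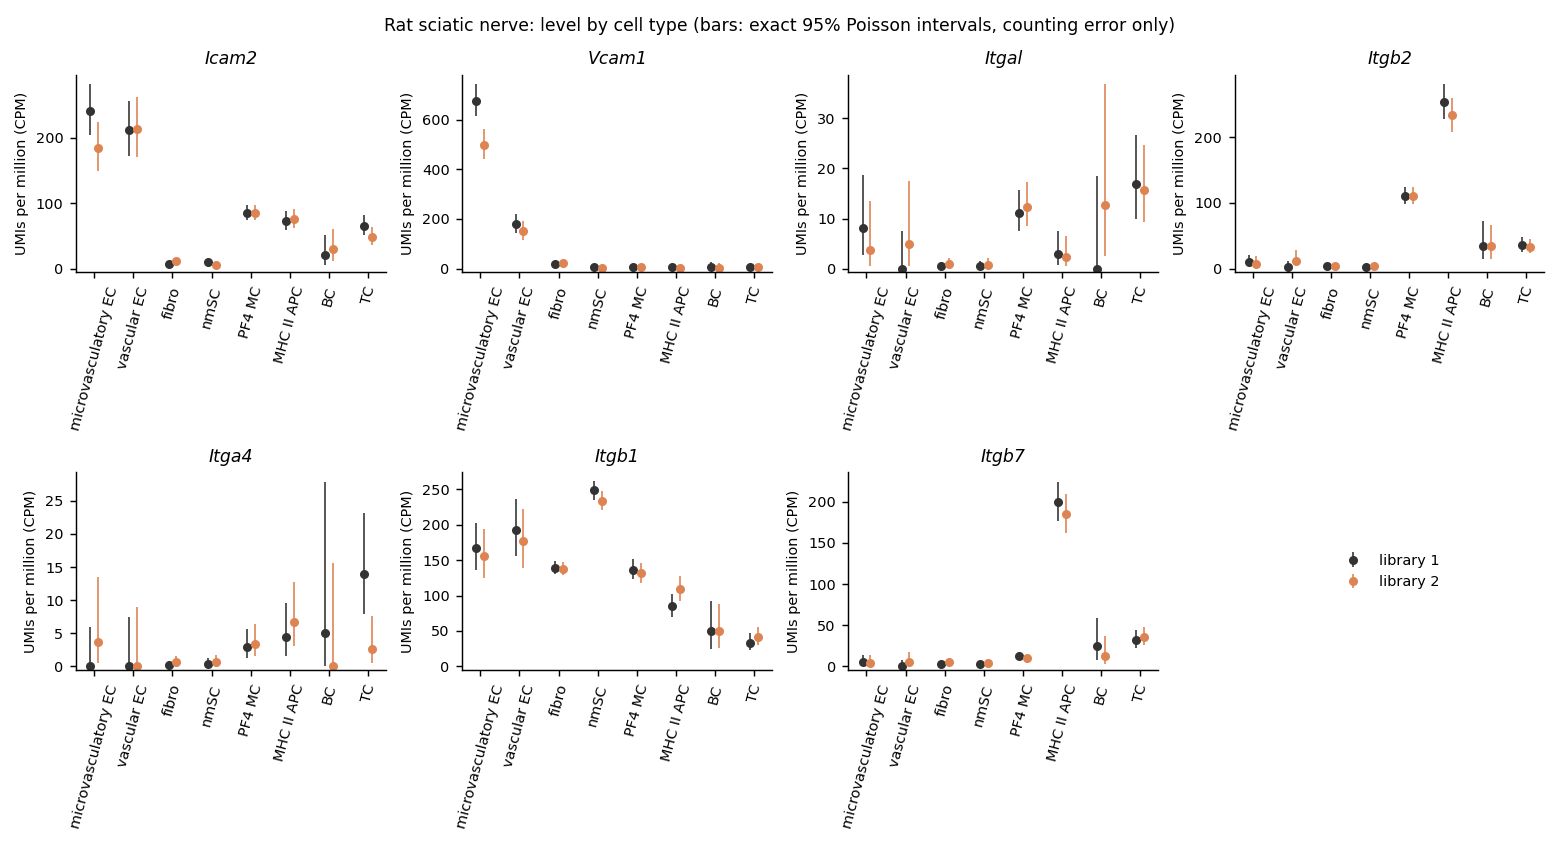
Levels of 7 genes (vertical axis, CPM, from 0, scale differs by panel) in 8 named types of rat sciatic nerve (horizontal axis), for library 1 (black) and library 2 (orange) with exact 95% Poisson intervals for counting error. Vcam1 is highest in microvasculatory EC, Itgb2 and Itgb7 in MHC II antigen-presenting cells and Itgb1 in cells named nmSC.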

How the data were processed

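Per the submitters' processing notes, Cell Ranger 3.0.2 was used with the builds mm10 and Rnor_6.0. The authors deposited raw UMI counts per gene and barcode (10x 3′ v2, per the labels' protocols) with a table of cell type names. No aligner setting or cell filter is given in the sources used here. Per the labels' protocols sequencing used either a NextSeq 500 or a NovaSeq 6000. Which library ran on which is not given, so instrument and group cannot be told apart.

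Counts of named cells were summed per sample and cell set (T cells, CD4 and CD8 or TC; myeloid, MC with pDC or MP; endothelial, EC or EC1), with at least 20 cells in each sample. This minimum was applied to the main sums and not again to the alternatives. Sums were tested with edgeR 4.0.16 (quasi-likelihood, TMM, filterByExpr with a minimum count of 10, R 4.3.3) and Benjamini-Hochberg adjustment over all genes. The test was first run on counts simulated with 1 common spread for all genes, which does not check the calls reported here. DESeq2 1.42.0 was an alternative, with unfiltered genes, each sample left out, doublets (Scrublet in scanpy 1.11.5) removed, equal cell numbers and other sums. Scrublet marked 0.21 to 2.23% of barcodes, and under 0.5% in 5 mouse libraries. Intervals are exact 95% Poisson intervals, and a count of 0 allows up to 3 counts. No column of per-sample values was left unused. Genes were named by membership, list genes when called, and similar genes as the 3 with the highest r. The members and lists were chosen with earlier results of these data known.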

Additional observations from a re-analysis of the deposited data

Results flagged for a closer look

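Barcodes to which no cell type name was given lie outside every comparison above, and members were detected in them above the level that a count of 0 allows. In 378 such mouse barcodes Icam2 stood at 52.3 CPM, Vcam1 at 41.4 CPM, Itgal at 26.1 CPM, Itgb2 at 67.5 CPM, Itga4 at 26.1 CPM, Itgb1 at 224 CPM and Itgb7 at 63.1 CPM. Itgam, with 2 UMIs, was under that limit. In 140 such rat barcodes Icam2 stood at 101 CPM, Vcam1 at 24.0 CPM, Itgb2 at 107 CPM, Itgb1 at 194 CPM and Itgb7 at 74.5 CPM, and Itgal and Itga4 were not above the limit. The levels lie between those of endothelial or leukocyte names and those of stromal names for Icam2 and Itgb2. No group held more than 3 samples, too few for a search for single outlying samples.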

How the results depend on the processing

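Over 31 tests of a member in a set, 5 of them called, 381 alternatives still tested the member. Of these, 332 kept the direction and the side of the threshold. A call was lost in 21 and gained in 1, and 27 turned the sign of a fold that was not called. Alternatives in which a member fell below the filter are not in these numbers, although a call ended there too. Vcam1 was tested in 10 of 14 alternatives in mySC and in 13 of 15 in myeloid cells, and Itga4 in 14 of 15 in T cells. In mySC the single call was lost (0 members) with DESeq2, with the replicate block, with equal cell numbers and in cells without leukocyte marker UMIs (the last chosen after seeing the data), and leaving out 1 sample gave 0 to 1. In myeloid cells the count of 1 became 0 with NOD controls 2-1 and 2-2 separate, with the libraries labelled knockout summed, and in cells without endothelial, T or B cell marker UMIs (chosen after seeing the data), and leaving out 1 sample gave 1 to 2. In T cells the count of 3 became 1 with DESeq2, 0 with the replicate block (adjusted p = 0.37 for Itgb1), 0 with equal cell numbers, 0 with the libraries labelled knockout summed, and 1 in cells with a Cd3 UMI (chosen after seeing the data), and leaving out 1 sample gave 0 to 3. In CD4 cells alone Itgb1 and Itga4 were called and Itgb2 was not (0.43, adjusted p = 0.38). No label says whether samples that share a number are paired. Deviations of same-numbered samples from their group means correlated between -0.04 and 0.12. With so few samples per group these correlations cannot show or exclude a pairing, so whether the block applies stays unknown.

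Signs turned without a call as follows. Itgb1 became 0.49 in nmSC with equal cell numbers, and in mySC -0.013 with DESeq2, -0.45 without NOD control 2, -0.025 with the replicate block and -0.0064 without leukocyte marker cells. Icam2 in EC became 0.091 without library 3 labelled knockout and 0.087 with the block, and in T cells 8.17 without NOD control 2, where the remaining control holds 0 UMIs. Itga4 in myeloid cells became -0.058 without NOD control 1. Itgb2 in myeloid cells, near 0 in the main test, became 0.056 unfiltered, 0.0030 with DESeq2, 0.030 without library 1 and 0.041 without library 3 labelled knockout, 0.29 without NOD control 2, 0.068 with the block, 0.21 with equal cell numbers, 0.070 with summed libraries, 0.059 without endothelial, T or B cell marker cells and 0.20 in MC alone. Itgal became -0.16 in CD4 cells alone. Between the strains Vcam1 in fibro became 0.12 without C57BL/6 library 3 and Itgam in myeloid cells -0.48 without NOD control 1. Itgb7 in myeloid cells became -0.015 unfiltered, -0.087 without C57BL/6 library 1, -0.025 without library 4, -0.0047 without NOD control 1 and -0.13 in cells without those markers. Leaving out each sample in turn gave -0.45 to 0.25 for Itgb1 in mySC, -0.27 to 0.091 for Icam2 in EC and -0.88 to 8.17 in T cells. In myeloid cells it gave -0.058 to 0.79 for Itga4 and -0.19 to 0.29 for Itgb2. Between the strains it gave -0.80 to 0.12 for Vcam1 in fibro, and -0.48 to 0.68 for Itgam and -0.087 to 0.45 for Itgb7 in myeloid cells. The cause of these turns was not tested.

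Counts over all genes also moved with the alternatives. Against NOD control they ranged over the alternatives from 83 to 1498 in T cells (960 in the main test, 267 without NOD control 2), 256 to 696 in myeloid cells (576), 38 to 403 in mySC (195), 3 to 348 in nmSC (82) and 7 to 37 in EC (14). Between the strains they ranged from 33 to 286 in nmSC (175), 38 to 247 in fibro (87), 9 to 79 in endothelial cells (41), 2 to 81 in myeloid cells (22) and 2 to 59 in T cells (24), with no member called under any alternative. Of 93 alternatives for a member's highest level 76 stayed within 1 SD. The highest type was the same in 24 of 24 mouse cases with only cells of at least 500 UMIs and without doublets, and in 21 of 24 without mitochondrial, ribosomal and haemoglobin genes (not for Itga4 and Itgal in NOD control and Itgb1 in the libraries labelled knockout), and in 7 of 7 rat cases each time. Depth limits the Vcam1 folds, which rest on 1 control UMI in myeloid cells and 8 in mySC.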
